A study of Coprinopsis cinerea AmutBmut pab1-1 with 7 samples.

Results

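The comparison described here is that of the *Coprinopsis cinerea* strain labelled cre1-91 with its wild type, over all 14242 gene models of the deposited count table. *C. cinerea* is a basidiomycete mushroom that grows on dung, straw and other plant litter. The members are 5 of the 7 libraries of the series, 3 of the wild type and 2 of cre1-91, chosen by their labels. The 2 libraries of another *cre1* mutant strain were left out. The wild type is *C. cinerea* AmutBmut pab1-1, a strain that carries the pab1-1 mutation and needs para-aminobenzoic acid. The cre1-91 strain was made from it with preassembled Cas9 and a split-marker cassette, by which *cre1* was to be replaced with a working *pab1* gene. It is 1 transformant, and it regained *pab1* while the wild type did not, so the effects of *cre1* and of *pab1* cannot be told apart in this comparison. The study screened transformants by PCR and sequenced fragments across both ends of the *cre1* locus. For this strain it reports reads that place the *pab1* marker there at both ends. The study also describes a small *cre1* fragment that could still be amplified from the mutant DNA at high cycle numbers. The RNA is from vegetative mycelium. Wild type and cre1-91 shared the culture conditions, a YMG medium whose glucose content was 0.2%, darkness, a temperature of 28°C and a culture time of 84 h, and a cellophane sheet separated the colony from the agar. Expression was measured with Quant-Seq, a method that reads only the 3′ end of each polyadenylated RNA.

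Cre1 is a zinc finger transcription factor of carbon catabolite repression, known mainly from ascomycete fungi. There it represses, in the presence of glucose, genes for the use of other carbon sources, among them secreted enzymes that degrade plant cell walls and transporters for the sugars these release. The enzymes are grouped in the CAZy families: glycoside hydrolases (GH), carbohydrate esterases (CE), polysaccharide lyases (PL), auxiliary activities (AA) and carbohydrate-binding modules (CBM). The comparison asks which genes differ in a strain built to lack this repressor.

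The 3 wild-type libraries summed to between 10196878 and 10784958 counts, and those of cre1-91 to 8514379 and 7977328, so both cre1-91 libraries were shallower than every wild-type library. The 10 most abundant genes of a library took 13.6 to 13.9% of the wild-type counts and 17.3 to 18.2% of the cre1-91 counts. Values that were not whole made up 11.95 to 14.13% of the genes in the wild type and 18.1 and 26.7% in cre1-91. Levels are given as scaled CPM, for which the library sizes were first scaled with TMM factors. On this scale the 2 strains separated on the first principal component, which held 73.7% of the variance over 9228 genes. The median difference of a gene between a pair of replicates was 0.16 to 0.21 log2 units among the wild-type libraries and 0.25 between the cre1-91 libraries. The part of the values that were not whole was not tested. Libraries thinned to the smallest of the 5 gave 708 genes called higher and 476 lower, beside 692 and 474 at full depth. The labels do not say whether replicates came from separate cultures, and P values measure only the spread between these libraries.

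The gene targeted in cre1-91 comes before the rest. In the Amut1Bmut1 pab1-1 v1.0 assembly, *cre1* is protein ID 466792, at 3218 to 6556 on the forward strand of scaffold 250. Its counts were 94.5, 81 and 122 in the wild type and 67 and 49 in cre1-91. Scaled to 8.57, 7.79 and 11.2 CPM in the wild type and to 8.42 and 6.15 CPM in cre1-91, the groups overlapped. The ratio of cre1-91 to wild type was 0.792, with a 95% interval from 0.533 to 1.18 (log2 fold change -0.34, standard error 0.26, adjusted P = 0.447, edgeR). A two-sided exact permutation test over the 5 libraries gave P = 0.4, where 0.1 is the smallest it can give. That test could not have passed a limit of 0.05 in this design. The interval of the ratio included no change and reached down only to 0.533, so a moderate fall could not be told from none. Most of the signal assigned to *cre1* was still counted in cre1-91, and the reason was not tested. The counts, which cover the coding sequence and a 3′ overhang together, do not check the deletion. The libraries are called cre1-91 because they are labelled so.

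Across all genes, 1166 (8.19%) were called, which means that they passed an adjusted P of 0.05 and differed at least 2-fold (edgeR quasi-likelihood test, Benjamini-Hochberg adjustment over 14242 genes). Of these, 692 (4.86% of all genes) were higher in cre1-91 and 474 (3.33%) were lower. In bulk RNA, fewer cells that express a gene and less of its RNA per cell cannot be told apart. The effects were mostly moderate. Among the genes called higher, 452 differed 2- to 4-fold, 145 differed 4- to 8-fold, 48 differed 8- to 16-fold and 47 differed 16-fold or more. Among those called lower the same classes held 360, 75, 23 and 13 genes, and for 3 more the fall could be bounded only below 2-fold. Genes at the counting floor, meaning 3 counts or fewer in every library of a group, entered these classes at the lower bound of their fold. The median log2 fold change was 1.64 for genes called higher and -1.45 for genes called lower, and 1.62 and -1.44 with floor genes at their bounds. Without the 2-fold limit 2495 genes (17.5%) passed, 1288 of them higher and 1207 lower. With library size alone for scaling, the calls were 624 higher and 615 lower, so that 50.36% of the calls were higher in place of 59.35%.

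**Figure D1:**
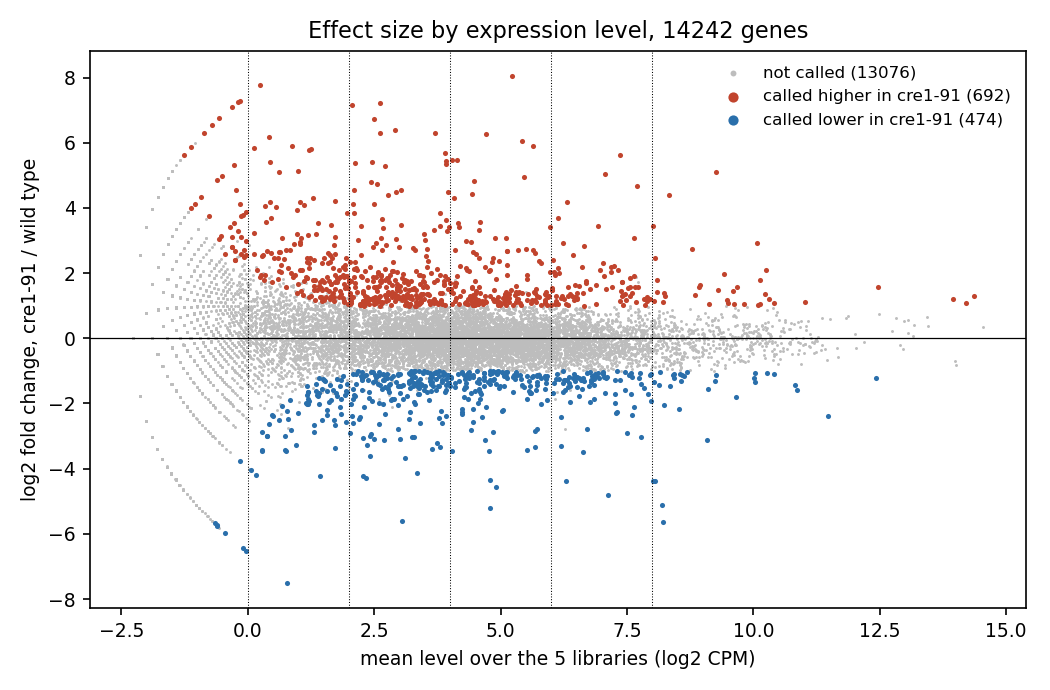
Log2 fold change of cre1-91 against wild type (vertical axis) by the mean level over the 5 libraries in log2 CPM (horizontal axis) for each gene. Red points are the 692 genes called higher, blue points the 474 called lower and grey points the 13076 not called, and dotted lines mark the limits between the 6 expression levels. Below a mean of 1 CPM only very large differences were called.

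Effect sizes were then described by expression level, in 6 levels of the mean log2 CPM over the 5 libraries. What could be called depended on the level. The 4198 genes under a mean of 1 CPM included 2798 that were at the floor in all 5 libraries, and 1.07% of the level was called, 38 higher and 7 lower. Those of them above the floor had a median standard error of 0.89 log2 units, and the smallest called difference of such a gene was 2.50 log2 units. From 1 to 4 CPM (1808 genes), 145 were called higher and 70 lower, 11.9% of the level. The median standard error there was 0.47, and of the 504 genes with a fitted difference of at least 2-fold, 42.7% were called. From 4 to 16 CPM (2785 genes), 239 were higher and 163 lower, 14.4% of the level, and the median standard error was 0.25. Above this, from 16 to 64 CPM (3367 genes), 155 were higher and 119 lower (8.14%). At 64 to 256 CPM (1497 genes), 79 were higher and 83 lower (10.8%). In the 587 genes at 256 CPM or more, 36 were higher and 32 lower (11.6%). In this highest level the median standard error was 0.13, and all 68 genes that differed at least 2-fold were called.

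Fitted sizes include the error of the fit, which was larger in the lower levels, and called sizes depend on what could be called. The median size of the log2 fold change over all genes of a level was 0.52 under 1 CPM, 0.62 from 1 to 4 CPM, 0.42 from 4 to 16 CPM, and 0.35, 0.36 and 0.35 in the levels above. Among called genes, the median rise was 2.00 log2 units from 1 to 4 CPM, 1.57 from 4 to 16 CPM, 1.35 from 16 to 64 CPM, 1.51 from 64 to 256 CPM and 1.39 at 256 CPM or more. The median fall in the same levels was -2.02, -1.43, -1.34, -1.29 and -1.33. The share of calls that were higher was 84.4% under 1 CPM, 67.4% from 1 to 4 CPM, 59.5% from 4 to 16 CPM, 56.6% from 16 to 64 CPM, 48.8% from 64 to 256 CPM and 52.9% at 256 CPM or more. Levels were not tested against each other. In the upper levels many passing differences stayed below 2-fold, 155 of the 223 genes with an adjusted P of at most 0.05 at 256 CPM or more, against 193 of 595 from 4 to 16 CPM. An example is protein 479832, at 9033, 9010 and 8814 CPM in the wild type and 14168 and 14248 CPM in cre1-91. It rose by 0.67 log2 units (standard error 0.09, adjusted P = 0.000636, edgeR) and was not called. It was picked after its values were seen.

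**Figure D2:**
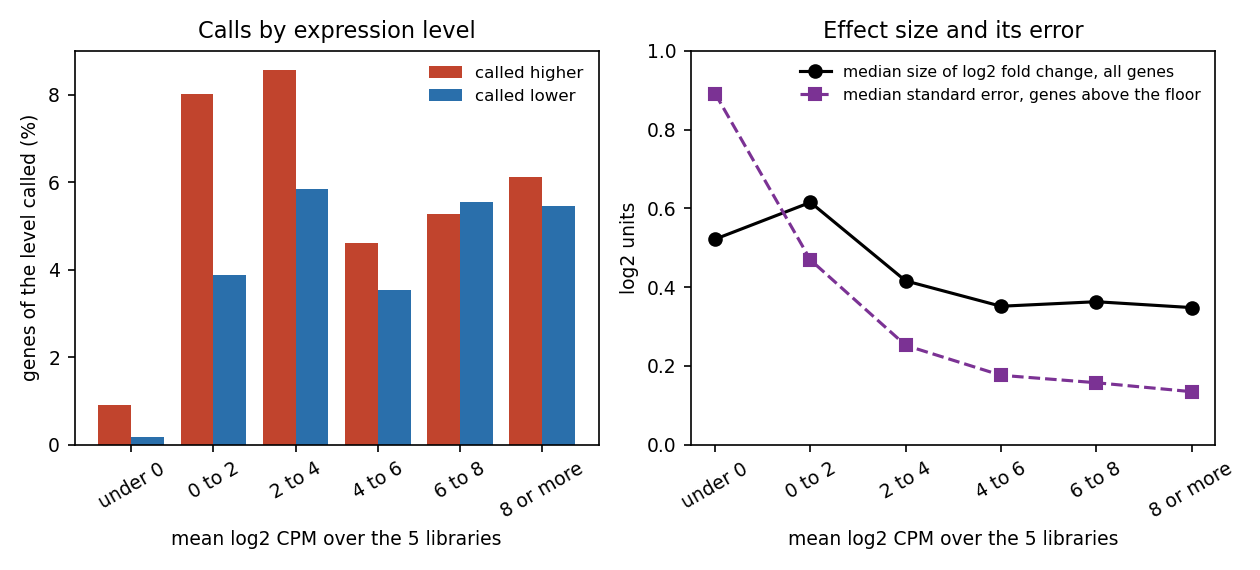
Left, the percentage of genes called higher (red) and lower (blue) in each of the 6 levels of mean log2 CPM. Right, the median size of the log2 fold change over all genes of the level (black circles) and the median standard error of genes above the floor (purple squares), both in log2 units. The standard error fell from 0.89 to 0.13, while the median size was 0.35 to 0.62 throughout.

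Genes called higher took a larger part of the transcript pool in cre1-91. Their summed share was 6.44, 6.32 and 6.40% in the wild-type libraries and 16.04 and 15.12% in the cre1-91 libraries. Genes called lower went from 6.21, 6.05 and 5.44% to 2.00 and 1.96%. The call used these values, so this is a description. Of the summed gain of genes called higher, 54.1% was in 4 abundant genes, while the 4 largest losses held 28.9% of the summed loss of genes called lower. Protein 401628 was at 13279, 13383 and 13538 CPM in the wild type and at 37233 and 28554 CPM in cre1-91. The rise was 2.46-fold (log2 fold change 1.30, standard error 0.11, adjusted P = 5.58e-05, edgeR). Protein 452134 was at 12697, 13013 and 13382 CPM against 29385 and 25383 CPM, a log2 fold change of 1.07 (standard error 0.09). Its call was lost with library size alone and without cre1-91 replicate 1, where the log2 fold change was 0.96. Protein 31923 was at 11633, 9994 and 9372 CPM against 25178 and 22353 CPM, with a log2 fold change of 1.20 (standard error 0.11). These 3 genes, none of which has an annotation in the sources used here, lie close together on scaffold 120, between 29660 and 39989.

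The region around these 3 genes was also described. Within 6 kb on either side there are 11 gene models, of which 4 were called, beside 8.19% of all genes. The region was chosen for the 3 genes, so only the fourth call, protein 31906, adds to them. This gene stands between them at 1.00, 4.23 and 8.18 CPM in the wild type and 21.4 and 24.8 CPM in cre1-91. It rose by 2.37 log2 units (adjusted P = 0.0101, edgeR), a call that was lost with limma voom (adjusted P = 0.0952), DESeq2 (0.0537) and a robust prior (0.164), and likewise without wild-type replicate 2 (adjusted P = 0.0646) or without either cre1-91 replicate (0.0686 and 0.0976). The uncalled models of the region with a mean of 4 CPM or more differed by at most 0.85 log2 units. Values of the 3 abundant genes were not whole in 3 or 4 of the 5 libraries. The gene with the next largest gain, protein 456645 on scaffold 310, rose from 3032, 2924 and 3489 CPM to 9595 and 9258 CPM, or 2.99-fold. It was added after its values were seen. The neighbouring model 434504 was at 9274, 8985 and 8488 CPM in the wild type and at 9248 and 9433 CPM in cre1-91, and it was not called (log2 fold change 0.07, adjusted P = 0.736, edgeR).

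The largest losses of transcripts were also in genes without an annotation here. Protein 445635 was at 6699, 7769 and 7061 CPM in the wild type and at 2804 and 3339 CPM in cre1-91, a fall of 2.34-fold (log2 fold change -1.22, standard error 0.12, adjusted P = 0.000123, edgeR). Protein 452466 was at 5428, 4685 and 2501 CPM against 781 and 843 CPM. It fell 5.18-fold, and its wild-type replicate 3 was the lowest of the 3 but still above both cre1-91 libraries. Protein 415885 was at 2697, 2469 and 2483 CPM against 994 and 700 CPM, a fall of 3.01-fold.

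Genes with the largest fitted rises were near or at 0 in the wild type. Protein 394254, of family GH152, to which thaumatin-like proteins with glucan-degrading members belong, rose most. Its level went from 0.365, 0.192 and 0.459 CPM to 94.7 and 92.6 CPM, a log2 fold change of 8.05 (standard error 0.24, adjusted P = 1.24e-07, edgeR). These wild-type values are of a few counts each, where 1 count is 0.091 to 0.096 CPM, so that standard error can be too small. The 2 genes with the next largest fitted rises among those named had no wild-type count, so their fitted values give no size, and their bounds are below the rises of several genes described further on. Protein 508076, on scaffold 124, had no count in the wild type and 3.01 and 2.64 CPM in cre1-91, at least 10.1-fold higher. Protein 379788, on scaffold 300, likewise had no wild-type count and reached 2.01 CPM in both cre1-91 libraries, at least 7.19-fold higher. In all, 47 of the genes called higher were at the floor in every wild-type library, and 26 of these had 10 or more counts in both cre1-91 libraries. Their lower bounds ran from 4.95- to 56.2-fold, and 5 of them belong to the plant cell wall enzymes described next. In the other direction, 25 genes called lower were at the floor in both cre1-91 libraries, and 14 of these had 10 or more counts in each wild-type library.

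Among the falls, protein 443129, a phosphate transporter on scaffold 244, went from 621, 523 and 307 CPM to 10.9 and 8.66 CPM. This was a fall of 49.3-fold (log2 fold change -5.62, standard error 0.34, adjusted P = 5.57e-06, edgeR). Protein 500507, a transporter of the major facilitator superfamily (MFS), went from 18.5, 11.9 and 7.90 CPM to 0.251 CPM in both cre1-91 libraries, which is at the floor, and was at least 33.9-fold lower. The last call was lost with limma voom (adjusted P = 0.0631). Protein 244981, unannotated here, had the lowest fitted value, but with 1.82, 2.21 and 2.94 CPM in the wild type and no count in cre1-91 its size is known only as at least 6.17-fold lower. Among annotated genes with large falls were a metallopeptidase of family M43 (279218, from 75.7, 19.4 and 37.0 CPM to 2.01 and 2.26 CPM) and a gene with a PsiD-like tryptophan decarboxylase annotation (178286). The latter went from 807, 674 and 1028 CPM to 119 and 72.0 CPM, a log2 fold change of -3.13 (standard error 0.26). The M43 call was lost with limma voom (adjusted P = 0.146) and with a robust prior (0.0744).

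**Figure D3:**
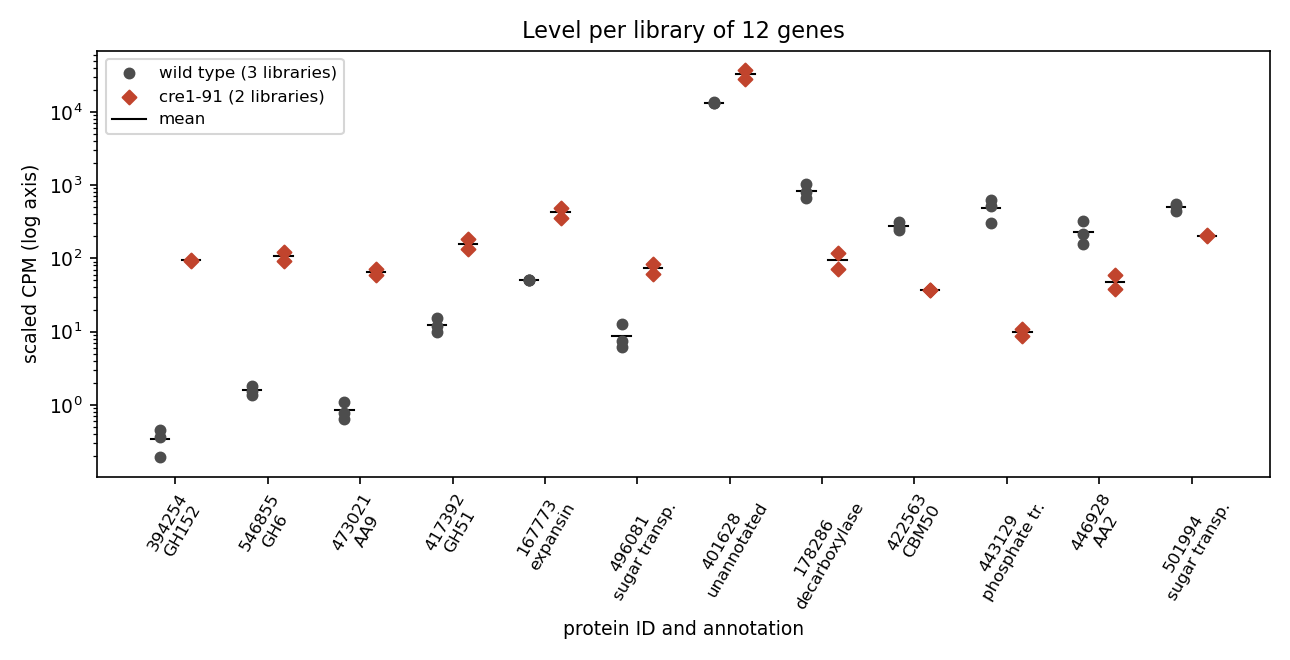
Scaled CPM on a log axis of 12 named genes in each library, with 3 wild-type libraries as grey circles, 2 cre1-91 libraries as red diamonds and group means as short lines. The genes were named only where the groups do not overlap, which also holds for 47.5% of all genes with a count, and protein 394254 goes from below 1 CPM to above 90 CPM.

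The genes for plant cell wall degradation were described next, from the list of 82 that the study drew from these and the other mutant's libraries for being changed, which is therefore not independent evidence of a direction. Of these, 56 were called higher and 11 lower, beside 4.86% and 3.33% of all genes, and their median log2 fold change was 2.25. Their summed level was 922, 1043 and 811.5 CPM in the wild type and 2638 and 2303 CPM in cre1-91.

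Genes grouped under cellulose rose most. Of 42, 38 were called higher and 0 lower, and none fell even at an unadjusted P of 0.05. The median log2 fold change was 3.02 (2.90 with floor genes at their bounds), and the sum went from 93.3, 91.7 and 96.6 CPM to 1285 and 903 CPM, 11.7-fold of the means. Protein 546855 is of family GH6, the cellobiohydrolases, which cut cellobiose from chain ends. It was at 1.82, 1.35 and 1.56 CPM in the wild type and at 121 and 92.1 CPM in cre1-91, with a log2 fold change of 6.06 (standard error 0.21, adjusted P = 2.26e-07, edgeR). Protein 473021 joins an AA9 domain, the lytic polysaccharide monooxygenases that cleave cellulose by oxidation, to a cellulose-binding CBM1. It was at 0.638, 0.769 and 1.10 CPM against 72.6 and 58.5 CPM. Protein 382347, also AA9, held at most 1 count in each wild-type library and reached 18.1 and 13.3 CPM, at least 56.2-fold higher. The AA9 gene 380579 was the weakest of those named, at 0.182, 0.192 and 0 CPM against 2.39 and 1.26 CPM. It was at least 6.52-fold higher, and the call was lost with limma voom (adjusted P = 0.0586) and without cre1-91 replicate 1 (adjusted P = 0.0790). Only the AA9 gene 374918 was on the other side, at 2.01, 1.83 and 1.84 CPM against 0.754 and 1.13 CPM, and it was not called (adjusted P = 0.181).

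Hemicellulose genes were more mixed. Of 37, 24 were called higher and 5 lower, with a median of 1.84 log2 units, and the sum went from 491, 489 and 424 CPM to 1010 and 845 CPM. Protein 417392 of family GH51, which holds arabinofuranosidases, rose from 9.84, 15.4 and 11.9 CPM to 185 and 132 CPM (log2 fold change 3.68, standard error 0.22, adjusted P = 5.29e-06, edgeR). The xylanase genes of families GH10 and GH11 started lower. Protein 446893 (GH11) was at 0.182, 0 and 0.0919 CPM in the wild type and at 5.02 and 6.52 CPM in cre1-91, at least 20.7-fold higher. Protein 368921 (CBM1 with GH10) was at 0, 0 and 0.184 CPM against 9.80 and 11.5 CPM, at least 38.2-fold higher. Among the 5 that fell, protein 252133 is of family GH47, known for mannosidases that trim the sugar chains of glycoproteins. It went from 105, 108 and 101 CPM to 37.2 and 33.3 CPM, a log2 fold change of -1.57 (standard error 0.15). Protein 517646 (GH16) fell by 1.05 on the log2 scale. The number called lower in this list was 2 without cre1-91 replicate 2, and 3 without wild-type replicate 1 or 2.

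All 11 pectin genes were higher at an unadjusted P of 0.05, and 9 of them were called, with a median of 2.46. Protein 444212, a GH3 enzyme listed under all of cellulose, hemicellulose and pectin, rose from 2.46, 2.21 and 2.02 CPM to 35.3 and 28.9 CPM. Its log2 fold change was 3.84 (standard error 0.21, adjusted P = 4.41e-06, edgeR). Several other members are shared between these lists in the same way, so the 3 counts are not of separate genes. A gene outside the list with an alpha-amylase domain and a starch-binding CBM21 module (277380) rose as well, from 17.9, 4.91 and 7.72 CPM to 198 and 171 CPM. Its log2 fold change was 4.18 (standard error 0.40).

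Lignin-related genes moved the other way. All 4 were called lower, with log2 fold changes from -3.46 to -1.86. Protein 446928 is of family AA2, the class of lignin-modifying peroxidases, and went from 212, 323 and 158 CPM to 38.1 and 58.3 CPM (log2 fold change -2.26, standard error 0.31, adjusted P = 0.00082, edgeR). It made up 96.2% of the summed cre1-91 level of the 4 genes. The laccase gene 208308 (AA1_1) went from 5.10, 5.77 and 5.60 CPM to 1.51 CPM in both cre1-91 libraries. A further laccase gene, 409847, was at the floor in cre1-91 and at least 5.82-fold lower, a call lost without cre1-91 replicate 2 (adjusted P = 0.0503).

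The 4 expansin genes, for proteins that loosen cell walls without cutting them, did not move together. Protein 167773 was at 50.1, 49.8 and 50.6 CPM in the wild type and at 359 and 489 CPM in cre1-91, a log2 fold change of 3.08 (standard error 0.16, adjusted P = 3.98e-06, edgeR). Protein 421450 went down from 58.5, 66.9 and 69.9 CPM to 19.5 and 21.3 CPM. The weakly expressed 496836 was at least 5.60-fold lower, but the call was lost with limma voom (adjusted P = 0.134), without either cre1-91 replicate (0.0797 and 0.157) and without wild-type replicate 1 or 2 (0.0958 and 0.0802).

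Of 19 genes that the study listed for the fungal cell wall, 9 were called higher and 6 lower, beside 4.86% and 3.33% of all genes. This list was also drawn for being changed in these or the other mutant's libraries and is not independent evidence. The summed level was 1834, 2201 and 2148 CPM in the wild type and 3339 and 2364 CPM in cre1-91. Its median log2 fold change of 0.48 was not stable in sign and was -0.31 without cre1-91 replicate 2. Apart from the GH152 gene 394254, the examples by P value were the AA3_2 gene 544684 and the CBM50 gene 422563. The first, of a family of flavin-dependent alcohol oxidases and dehydrogenases, rose from 3.37, 3.37 and 2.57 CPM to 19.5 and 21.7 CPM. The second carries LysM modules, which bind chitin, and went from 269, 314 and 243 CPM to 37.2 and 36.9 CPM, a log2 fold change of -2.89 (standard error 0.17, adjusted P = 5.57e-06, edgeR). The GH5_9 glucanase-family gene 414471 fell by 1.88 on the log2 scale, from 33.5, 34.0 and 32.9 CPM to 8.79 and 9.41 CPM.

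**Figure D4:**
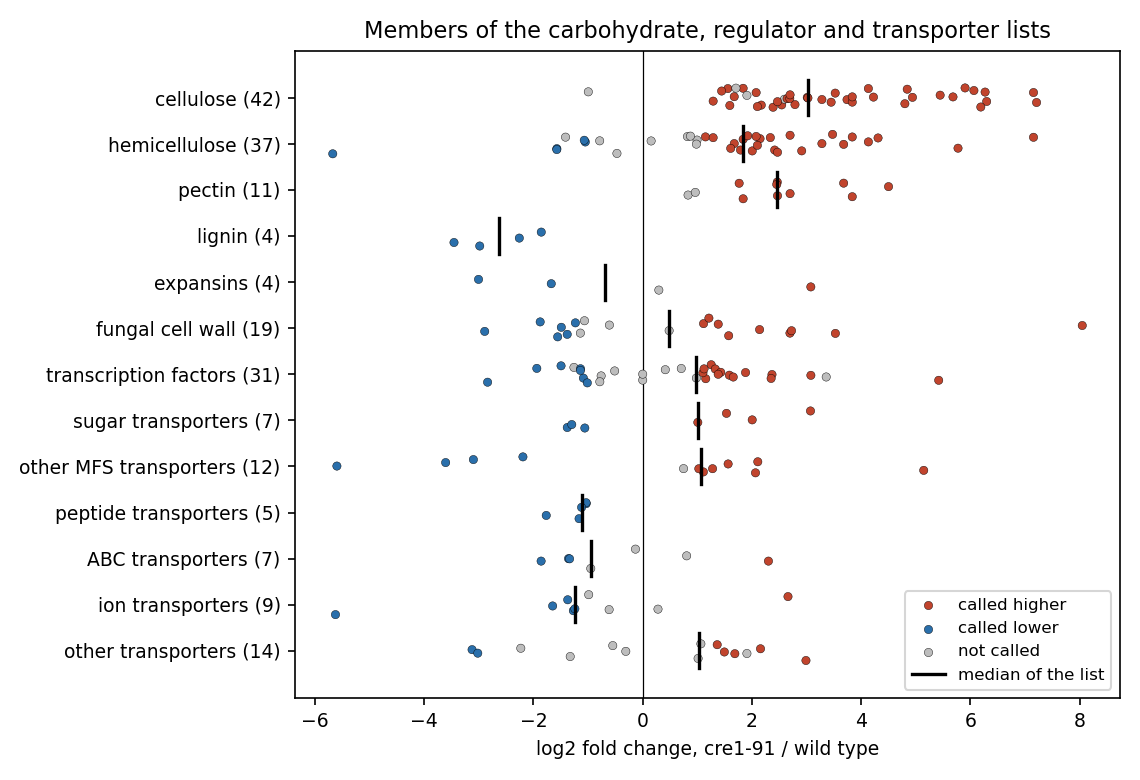
Log2 fold change of cre1-91 against wild type for every member of 13 lists (number of members in parentheses), with each point 1 gene, red called higher, blue called lower and grey not called, and a black bar at the median of the list. All 4 lignin genes and all 5 peptide transporters lie left of 0, and 41 of 42 cellulose genes lie right of it. Members at the counting floor are drawn at their fitted value, and some genes stand in more than 1 of the first 3 lists.

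The list of transcription factors was likewise drawn by the study for differential expression in these or the other mutant's libraries and is not independent evidence. Of 31, 14 were called higher and 7 lower, beside 4.86% and 3.33% of all genes, and their median log2 fold change was 0.98 (0.71 with floor genes at their bounds). Protein 495201, with the Zn(2)-C6 domain found in fungal regulators, was at 26.3, 19.9 and 15.0 CPM in the wild type and at 102 and 108 CPM in cre1-91 (log2 fold change 2.37, standard error 0.21, adjusted P = 6.29e-05, edgeR). The high mobility group protein 477121 rose from 21.2, 20.9 and 19.5 CPM to 54.3 and 56.3 CPM. Protein 367382, with C2H2 zinc fingers, the class to which Cre1 itself belongs, went down from 80.2, 55.3 and 97.9 CPM to 10.7 and 11.0 CPM. Its log2 fold change was -2.84 (standard error 0.25). The Zn(2)-C6 gene 459581 fell by 1.14 on the log2 scale, and by 1.00 without cre1-91 replicate 2, where it missed the 2-fold limit. The number called lower in this list was 3 without that library.

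The 54 plasma membrane transporters were listed by the study for a change in these or the other mutant's libraries, so the counts of this list and of its families are not independent evidence of a direction. Of them, 18 were called higher and 22 lower, beside 4.86% and 3.33% of all genes. With limma voom the list held 11 and 13, and without either cre1-91 replicate it held 11 higher. The 7 sugar transporters split into 4 higher and 3 lower, and their summed level was 806, 801 and 687 CPM in the wild type and 799 and 719 CPM in cre1-91. Protein 496081 rose from 7.47, 12.7 and 6.06 CPM to 85.0 and 61.9 CPM, a log2 fold change of 3.07 (standard error 0.27, adjusted P = 6.31e-05, edgeR). Protein 11944 rose from 6.20, 6.44 and 4.23 CPM to 21.98 and 23.21 CPM. The most abundant sugar transporter of the wild type, 501994, went down from 515, 548 and 439 CPM to 206 and 201 CPM. Protein 437935 fell by 1.38 on the log2 scale, a call lost with limma voom (adjusted P = 0.0679) and without cre1-91 replicate 1 (0.0533).

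Among the 12 other MFS transporters 7 were called higher and 4 lower. Protein 501637 rose from at most 0.184 CPM in each wild-type library to 5.78 and 3.89 CPM, at least 17.3-fold. Protein 125252 was at 11.48, 12.02 and 12.40 CPM against 59.2 and 44.0 CPM. Protein 466228 went down from 50.3, 50.9 and 41.0 CPM to 8.04 and 12.7 CPM. All 5 peptide transporters were called lower, with log2 fold changes from -1.77 to -1.04, and their sum went from 1090, 897 and 986 CPM to 471 and 427 CPM. The calls of this family stood close to the 2-fold limit: with upper-quartile scaling or limma voom 3 of the 5 remained, and without cre1-91 replicate 2 there were 2. The most abundant, 176106, was at 558, 496 and 509 CPM against 253 and 256 CPM.

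Ion transporters fell in 5 of 9 cases and rose in 1, and their sum went from 983, 888 and 607 CPM to 179 and 143 CPM. The phosphate transporter 443129 made up most of the loss. The SulP-family anion transporter gene 363967 was at 121, 100.2 and 86.3 CPM against 31.5 and 33.8 CPM, a log2 fold change of -1.65 (standard error 0.18, adjusted P = 0.000256, edgeR). The copper transporter gene 442029 rose from 0.182, 0.577 and 0.643 CPM to 3.64 and 2.38 CPM, a call lost without cre1-91 replicate 1 (log2 fold change 2.33, adjusted P = 0.0634). In this list 3 were called lower without cre1-91 replicate 2, and 2 with limma voom. Of 7 ABC transporters 1 was called higher (447110, from 35.6, 56.7 and 60.5 CPM to 235 and 268 CPM) and 3 lower. Of the 14 remaining transporters 5 were called higher and 2 lower. Among them the acetate transporter gene 441597 rose from 39.8, 59.1 and 66.1 CPM to 168 and 186 CPM. The amino acid and polyamine transporter gene 530563 went from 17.6, 14.5 and 10.9 CPM to 2.01 and 1.51 CPM.

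InterPro families were picked by their descriptions from the 1999 genes whose annotation was held here, of which 88 were called higher and 81 lower. Membership did not depend on a change, but the study reported changes for some of these families in these libraries. Among those are G-protein-coupled receptors, glycoside hydrolases and genes with a cellulose-binding CBM1 domain, so their counts are not independent evidence. These small lists are described beside 8.19% of all genes called, and counts near that share are no result about a family. Among 35 ribosomal protein genes 0 were called higher and 1 lower, the mitochondrial Rsm22-like 356997, and 14 were lower at an unadjusted P of 0.05 with a median log2 fold change of -0.18. Of 16 proteasome genes and 7 aminoacyl-tRNA synthetase genes 0 were called, and 4 and 1 passed an unadjusted P of 0.05. Of all 14242 genes, 4273 passed this unadjusted limit of the edgeR test, 2143 of them higher and 2130 lower. Counts near that share are likewise no result about a family. The edgeR test gave 0 calls also for 26 RNA recognition motif genes, of which 7 passed an unadjusted P of 0.05 and of which limma voom, and edgeR without cre1-91 replicate 1, called 1 lower. Of 16 histone-fold genes 2 were called lower, for an H2A and an H4 protein, and 0 higher. The H2A gene 363625 went from 125, 151 and 119 CPM to 52.6 and 53.2 CPM.

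Several other families held a few calls. Of 11 G-protein and GPCR genes 3 were called lower and 0 higher, among them the STE3-type pheromone receptor gene 356637 at 81.9, 69.2 and 73.0 CPM against 31.7 and 36.0 CPM (log2 fold change -1.14, standard error 0.16, adjusted P = 0.000918, edgeR). Of 32 cytochrome P450 genes 3 were lower and 0 higher, of 36 protein kinase genes 2 and 0, and of 68 F-box genes 5 and 1, beside 81 lower and 88 higher of the 1999 genes. Of 48 glycoside hydrolase genes 12 were called higher and 1 lower, but their median log2 fold change was -0.03. Their mean summed level was 3429 CPM in the wild type and 3342 CPM in cre1-91, but 1 gene made up 46.7% of the cre1-91 sum. Of 12 genes with a fungal cellulose-binding domain 4 were higher and 0 lower, with a median of 0.84. Both families overlap the plant cell wall list. Among 18 chaperone genes the only call was the small heat shock protein gene 367102, which rose from 9.21, 11.9 and 12.2 CPM to 66.1 and 76.9 CPM.

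Hydrophobins and ricin B lectins, small secreted coat proteins and sugar-binding proteins that in mushrooms are found in aerial mycelium and fruiting bodies, were taken as signs of other tissue. Of 5 hydrophobin genes 0 were called higher and 1 lower, and the summed level was 371 to 564 CPM in the wild type and 549 to 585 CPM in cre1-91. Of 8 ricin B lectin genes 1 was called higher and 1 lower, with sums of 295 to 340 CPM and 231 to 238 CPM. Protein 369576 of this family rose from 1.64, 2.31 and 3.12 CPM to 57.8 and 44.7 CPM, a log2 fold change of 4.43 (standard error 0.25, adjusted P = 4.41e-06, edgeR). The hydrophobin call, 363242, was lost with limma voom (adjusted P = 0.114) and without either cre1-91 replicate (0.0674 and 0.103). The part of tissue composition in the other results was not tested.

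Position along the scaffolds was not used in the comparison. Most called genes had no neighbour called in the same direction: 592 of the 692 higher and 418 of the 474 lower genes stood alone. With only 4.86% and 3.33% of all genes called higher and lower, most would stand alone anyway, so these counts are no result about position. Only 3 runs held 4 or more consecutive models called in 1 direction. On scaffold 96, from 11445 to 20610, 6 neighbours were higher. Of these, only 289976, an esterase of family CE16 listed under pectin, has an annotation here, and it rose from 0.820, 0.577 and 1.01 CPM to 17.3 and 19.7 CPM. The first of the run, 479570, was at 0.273, 0.385 and 0 CPM against 23.4 and 15.1 CPM, with a log2 fold change of 6.38 (standard error 0.49, adjusted P = 2.42e-05, edgeR). That standard error can be too small, since the wild type held only a few counts. The other 4 had log2 fold changes from 3.67 to 5.37, and no model of this run overlaps one on the opposite strand.

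The other runs were of genes called lower. On scaffold 35, from 79220 to 89807, a run of 4 includes the tryptophan decarboxylase gene 178286. Its neighbours were 496199, at 287, 234 and 298 CPM against 137 and 124 CPM, 457157, at 6.02, 3.17 and 8.91 CPM against 1.63 and 2.38 CPM, and 468685, with 0.820, 1.15 and 1.38 CPM against no count. Without cre1-91 replicate 2 only 178286 of the 4 was called, since 468685 and 457157 missed the P limit (adjusted P = 0.0526 and 0.137) and 496199 the 2-fold limit (log2 fold change -0.98). The call of 457157 was also lost with limma voom (adjusted P = 0.203). Calls of 457157 were lost further without wild-type replicate 1 or 3 or cre1-91 replicate 1, and that of 468685 without wild-type replicate 2 (adjusted P = 0.0874, 0.105, 0.225 and 0.0521). On scaffold 109, from 52291 to 60325, a run of 4 ends with the subtilisin-family peptidase gene 18280. With the runs included, 29.7% of the 37 models of that scaffold were called, beside 8.19% of all genes. The shares were 19.15% of 47 models on scaffold 96 and 14.06% of 64 on scaffold 35. The log2 fold changes of the scaffold 109 run went from -3.34 to -1.33, and with limma voom 0 of its 4 genes were called (adjusted P = 0.0711, 0.250, 0.0600 and 0.122). The call of 437532 was lost without wild-type replicate 1 or 2 or either cre1-91 replicate (adjusted P = 0.106, 0.142, 0.233 and 0.161), and that of 18280 without wild-type replicate 1 or either cre1-91 replicate (0.0803, 0.0843 and 0.129).

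**Figure D5:**
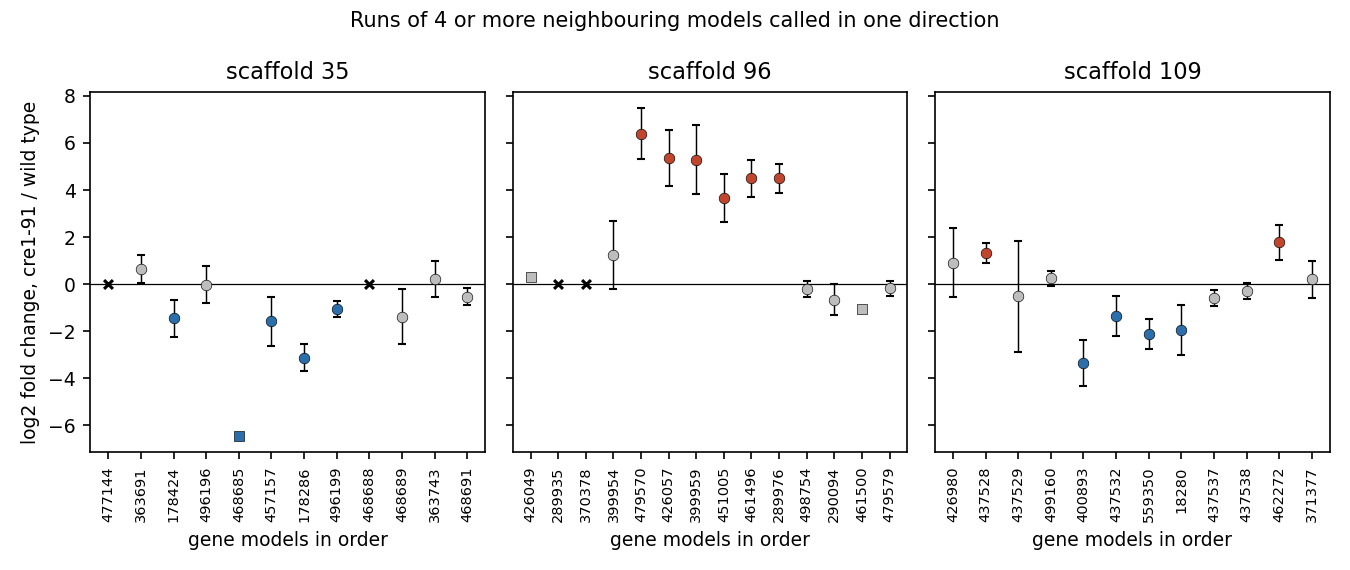
Log2 fold change with its 95% interval for the models of the 3 runs and up to 4 models on either side, in their order along each scaffold. Red is called higher, blue called lower and grey not called, squares are genes with 1 group at the counting floor (no interval drawn), and crosses have both groups at the floor. The 6 genes of the scaffold 96 run lie between 3.67 and 6.38, beside neighbours that were not called. Intervals can be too narrow where 1 group held only a few counts.

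Many gene models of this genome overlap, and whether the counting kept strands apart is not given in the sources used here. Of all models, 59.5% overlap another, and so do 56.1% of those called higher and 51.9% of those called lower. There were 410 pairs of overlapping models on opposite strands with at least 1 called, and in 13 of them both were called, 5 in the same and 8 in opposite directions. Values of the called gene of such a pair can include reads of its partner.

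Large differences that were not called were rare above a mean of 4 CPM. There were 2 genes with a difference over 4-fold, and in each 1 wild-type library stood apart. Protein 355684, with a velvet domain, known from regulators of fungal development, was at 11.7, 326 and 14.4 CPM in the wild type and at 17.1 CPM in both cre1-91 libraries (adjusted P = 0.162, edgeR). Its log2 fold change was -2.78 with all libraries and 0.38 without wild-type replicate 2. Protein 95811 was at 5.29, 21.4 and 3.03 CPM against 3.14 and 1.38 CPM. Both genes were called in a few other settings, 355684 with all 7 libraries (adjusted P = 0.0455) and without wild-type replicate 3 (0.0313), and 95811 in these (0.0244 and 0.0108) and with library size alone (0.0469). The same wild-type library was the highest for the called oxalate decarboxylase-like cupin gene 361522, at 188, 617 and 203 CPM against 58.03 and 24.97 CPM. That call was lost with limma voom (adjusted P = 0.0954), with a robust prior (0.154) and without cre1-91 replicate 2 (0.0874).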

How the data were processed

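Mycelium of the wild type (3 libraries) and of cre1-91 (2 libraries) was compared. The authors mapped trimmed Quant-Seq reads with STAR 2.6.1a and counted them with featureCounts on gene models carrying a 3′ overhang. The deposited table holds the estimated counts that the authors obtained in this way, without normalization. Whole counts had been assumed when the tests were laid out, but some values are not whole, so they were rounded first. A deposited table of normalized values was not used. Protein IDs and positions on scaffolds follow the gene models of the series (Amut1Bmut1 pab1-1 v1.0, counted from 1). RefSeq gene names belong to another strain and were not used.

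The 5 libraries were fitted with edgeR 4.0.16 in R 4.3.3 (TMM, glmQLFit, glmQLFTest, no filter on low counts), with Benjamini-Hochberg adjustment over 14242 genes. The common biological coefficient of variation was 0.172 with 3 residual degrees of freedom. A standard error was taken as the coefficient without shrinkage over the root of its F statistic, which can understate the error where 1 group held only a few counts. The floor is 3 counts per library, and bounds divide the other group's mean CPM by that of 3 counts (0.279 CPM in the wild type, 0.377 in cre1-91). They are no confidence limits. Alternatives were other scalings, the filterByExpr filter, limma 3.58.1 voom, DESeq2 1.42.0, a test against 2-fold, a robust prior, all 7 libraries, thinning, unrounded values, a replicate block and leaving out each library. The models were also run on simulated counts, and the outcome is not given here. Changes were placed there only in genes above the floor, so that run says nothing on genes near it. Lists are the study's tables of cell wall enzymes, transcription factors and transporters, and InterPro families in a part of its annotation table (1999 genes). Members and lists were chosen with earlier results of these data known.

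Named are *cre1*, the 3 largest rises and falls, the 2 largest rises and falls of annotated genes per level, the 3 largest CPM gains and losses, the 2 smallest P values in each direction per list of the study, and called members of InterPro families. All but *cre1* and the members of InterPro families needed at least 10 counts per library in whichever group was higher, and no overlap of the groups. Runs of neighbours were named by their length. Proteins 31906, 434504, 355684 and 95811 and others said to be so were chosen after their values were seen. Not all genes that the rule gives are printed.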

Additional observations from a re-analysis of the deposited data

How the results depend on the processing

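The counts of 692 genes called higher and 474 lower stayed within 1.5 times under other scalings, the filter, limma voom (577 and 341), DESeq2 (660 and 463), all 7 libraries, a robust prior, thinning and unrounded values. A test against a 2-fold change itself called 210 higher and 107 lower (66.25% higher), and no fold-change limit gave 1288 and 1207. Library size alone moved the share of calls that were higher from 59.35 to 50.36%, with a shift of -0.08 log2 units in the median gene. Leaving out each library in turn gave 559 to 631 higher and 342 to 500 lower, with 55.5 to 62.0% higher. Under the 16 settings other than the test against 2-fold, 353 genes were called higher and 191 lower in every one. Among called genes, the log2 fold change of no named gene turned. Uncalled 434504 was at -0.014 with library size alone and 355684 ranged from -3.33 to 0.383 when each library was left out, the latter without wild-type replicate 2. For *cre1*, the range without each library was -0.58 to -0.12.

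Replicate numbers are shared between the groups but do not pair the samples: deviations of same-numbered libraries correlated at r = -0.043 and -0.045 over 9228 genes. With the replicate block 688 genes were called higher and 526 lower (56.7% higher), and the log2 fold change of *cre1* was -0.18. With it 355684 and 95811 were called lower, and 457157 (adjusted P = 0.0530) and 496199 (log2 fold change -0.99) of the scaffold 35 run were not called. Differences of genes under 1 CPM were mostly not detectable.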
